A study of Mus musculus with 7 samples.

Results

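The BPI-fold proteins of the airway, also called PLUNC proteins, were followed through 8 mouse genes, *Bpifa1*, *Bpifb1*, *Bpifb2*, *Bpifb3*, *Bpifb4*, *Bpifb5*, *Bpifb6* and *Bpifc*. They were the genes of the Bpif family, other than *Bpifa2* and the further relatives, that array probes reached through their RefSeq transcript. Each gene had 1 probe, so the 8 genes were 8 of 39429 probes and 8 of 21367 gene symbols on the array. On each of the 7 arrays all 8 probes stood well above background in the DEP and the control channel, and none was saturated.

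Nasal cavity tissue of female BALB/c mice, 6 weeks old when exposure began, was measured. The DEP group inhaled 100 µg/m3 of diesel exhaust particles (DEP) in nebulized saline for 1 h a day on 5 days a week, for 4 or 8 weeks, and the control mice of each time inhaled saline under the same conditions. Each Agilent mouse array carried DEP RNA in Cy5 and control RNA in Cy3, with 4 arrays at 4 weeks and 3 arrays at 8 weeks. No array had the dyes swapped, so a dye preference of a probe cannot be told apart from its DEP over control ratio, while it cancels when a ratio or a channel is compared between the exposure times. Each exposure time had a slide of its own, so that slide, age of the mice and time of exposure cannot be told apart. The labels call the arrays biological replicates, but the sources used here do not say how many mice gave RNA to an array or whether RNA was pooled, so the p-values measure the spread between arrays.

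BPI-fold proteins share the lipid-binding fold of bactericidal permeability-increasing protein (BPI) and of lipopolysaccharide-binding protein (LBP), which bind the lipid part of bacterial lipopolysaccharide. Most PLUNC proteins are secreted by the surface epithelium and the glands of the nose, mouth and upper airways, where they form part of the fluid over the mucosa. Short PLUNC proteins (the BPIFA group) hold one such domain and long ones (the BPIFB group) hold a pair. In the mouse their genes lie next to each other on chromosome 2, with *Bpifc* alone on chromosome 10.

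After 4 weeks, DEP tissue had more *Bpifc*, *Bpifb1*, *Bpifb6*, *Bpifb5* and *Bpifb4* RNA than control tissue and slightly less *Bpifb2*. After 8 weeks *Bpifc* and *Bpifb1* were again higher and *Bpifa1* had become higher, while *Bpifb4* and *Bpifb6* were now lower and *Bpifb2* was 4.76-fold lower. *Bpifc* had the largest increase of the 8 genes at both times, and *Bpifb2* at 8 weeks had the largest change of all.

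**Figure D1:**
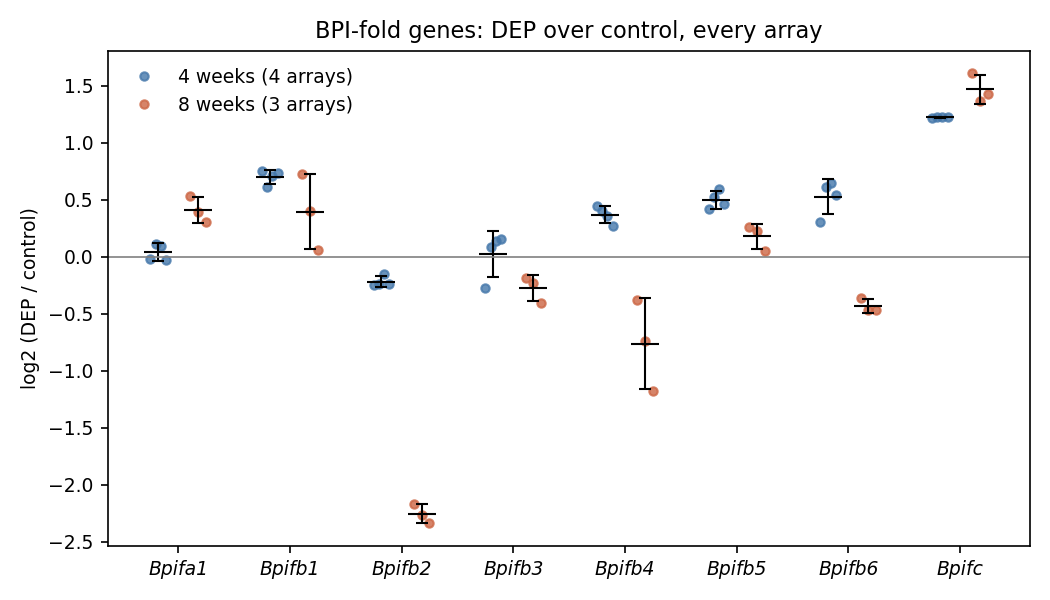
Log2 ratio of DEP over control (y axis) of the 8 BPI-fold genes on each array, with blue points for the 4 arrays of 4 weeks and orange points for the 3 arrays of 8 weeks. Black bars are the mean and SD over arrays. The ratios of *Bpifc* lie between 1.22 and 1.61 at both times, and those of *Bpifb2* go from between -0.25 and -0.15 at 4 weeks to between -2.33 and -2.16 at 8 weeks.

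At 4 weeks, 5 of the 8 genes rose and 1 fell at an adjusted p of at most 0.05 (limma, Benjamini-Hochberg over all 25236 probes tested), and 2 did not pass. Of all probes tested 37% passed in this comparison, 20.7% upward and 16.3% downward, so that passing alone says little about a gene. The share was larger among bright probes. Of 14856 probes whose DEP and control signals were clear of background on every array, as those of the 8 genes were, 50.1% passed when tested alone. In that test 5 of the 8 genes again rose and 1 fell. The median log2 ratio was 0.43 over the 8 genes and -0.0029 over all probes. The thresholds of the study, an unadjusted p no greater than 0.01 with a change of 2-fold or more, were met by 1.12% of probes, 0.785% upward and 0.337% downward, and of the 8 genes by *Bpifc*. Of the probes called, 56% were higher in DEP tissue with loess, 42.1% with median centring and 67.9% with the processed signals of the scanner software. Under these scalings 5, 4 and 5 BPI-fold genes were called higher and 1 lower.

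At 8 weeks, 3 of the 8 genes rose, 3 fell and 2 did not pass, beside 36% of all probes that passed, 18.7% upward and 17.3% downward. Of the 14856 bright probes tested alone 48.1% passed, and 4 of the 8 genes then rose and 4 fell. The log2 ratios of the 8 genes ranged from -2.25 to 1.47, with a median of -0.05, against -0.00077 over all probes. *Bpifc* upward and *Bpifb2* downward passed the thresholds of the study, beside 2.66% of probes, 1.83% upward and 0.836% downward. Median centring moved the share of called probes that were higher from 52% to 25.3% and gave 2 BPI-fold genes higher and 4 lower, and the processed signals gave 1 higher and 4 lower. Over tested probes the median log2 ratio of an 8-week array was -0.13 to -0.09 with median centring and -0.01 to 0.02 with the processed signals. For the 4-week arrays these medians were -0.06 to 0.04 and 0.07 to 0.16. Under every scaling tried, each gene called at 4 or 8 weeks kept its direction.

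Of the 14856 bright probes tested alone, 43.9% had a DEP effect that differed between 8 and 4 weeks. The DEP effect itself differed between 8 and 4 weeks for 6 of the 8 genes, beside 29.9% of all probes, 13.9% with a more positive and 16% with a more negative effect. It was more negative at 8 weeks for *Bpifb2*, *Bpifb4*, *Bpifb6* and *Bpifb5* and more positive for *Bpifa1* and *Bpifc*. The differences of *Bpifb2* and *Bpifb4* also met the thresholds of the study, as those of 2.78% of probes did, 1.67% in the positive and 1.11% in the negative direction. In numbers of probes these were 422 and 280 with loess, 293 and 484 with median centring and 1012 and 1520 with the processed signals. Of the called probes 46.5% were more positive at 8 weeks with loess, 27.9% with median centring and 33.5% with the processed signals. Under these scalings 2, 1 and 0 of the BPI-fold genes were called more positive and 4, 5 and 5 more negative.

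*Bpifa1* encodes the short PLUNC protein SPLUNC1, an abundant surface-active protein of nasal and airway secretions. Its log2 ratios at 4 weeks were -0.02, 0.12, 0.10 and -0.03 on replicates 1 to 4, on both sides of zero, with a mean of 0.04 ± 0.08 (SD, n = 4 arrays; adjusted p = 0.58 by limma, 95% interval -0.08 to 0.17). At 8 weeks they were 0.53, 0.39 and 0.31, with a mean of 0.41 ± 0.11 (SD, n = 3, 1.33-fold, adjusted p = 0.0019 by limma). All 3 arrays of 8 weeks lay above all 4 arrays of 4 weeks, and the difference of 0.37 passed the test (adjusted p = 0.013 by limma), though not with the processed signals (0.29, adjusted p = 0.053, with 0.0074 to 0.053 over the alternatives). With the processed signals the 8-week ratio was 0.21 (adjusted p = 0.060) and with the methods' t-test it did not pass either (adjusted p = 0.073, with 0.00084 to 0.073 over the alternatives). The log2 levels of *Bpifa1* in control tissue were 15.76 to 16.12 at 4 weeks and 16.08 to 16.36 at 8 weeks, ranges that overlap (difference 0.24, adjusted p = 0.16 by limma). With the processed signals scaled to their 75th percentile this difference was 0.41 and passed (adjusted p = 0.012, with 0.012 to 0.40 over the alternatives). In DEP tissue they were 15.84 to 16.23 and 16.50 to 16.75, which do not overlap (difference 0.61, adjusted p = 0.0015 by limma).

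*Bpifb1* encodes LPLUNC1, the long PLUNC protein of secretory and goblet cells of the airway. On the 4-week arrays its log2 ratios were 0.75, 0.61, 0.71 and 0.73, close together, with a mean of 0.70 ± 0.06 (SD, n = 4, 1.63-fold, adjusted p = 0.0012 by limma). On the 8-week arrays they were 0.72, 0.40 and 0.06, all above zero but far apart, with a mean of 0.40 ± 0.33 (SD, n = 3, adjusted p = 0.025 by limma). This 8-week call was lost without replicate 1 of 8 weeks (log2 ratio 0.23, adjusted p = 0.11), without replicate 2 of 8 weeks (0.39, adjusted p = 0.11), with median centring (0.08, adjusted p = 0.66), with background-outlier spots left out (0.23, adjusted p = 0.11), with the processed signals (0.32, adjusted p = 0.11) and with the methods' t-test (adjusted p = 0.23, with 0.0059 to 0.66 over the alternatives). The difference between the 2 times was -0.30 and did not pass (adjusted p = 0.15 by limma). It passed without replicate 1 of 8 weeks (-0.47, adjusted p = 0.026), with median centring (-0.56, adjusted p = 0.036) and with background-outlier spots left out (-0.45, adjusted p = 0.038), and was -0.14 without replicate 3 of 8 weeks (adjusted p = 0.41, with 0.026 to 0.41 over the alternatives).

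The level of *Bpifb1* changed more between the times than between DEP and control. In control tissue its log2 level was 12.76, 13.02, 13.004 and 13.04 at 4 weeks and 10.75, 10.85 and 10.76 at 8 weeks, a fall of 4.50-fold (log2 difference -2.17, adjusted p = 7.9e-06 by limma). In DEP tissue it was 13.51, 13.63, 13.71 and 13.77 at 4 weeks and 11.48, 11.25 and 10.82 at 8 weeks, a fall of 5.56-fold (log2 difference -2.47, adjusted p = 2.2e-07 by limma). The lowest level of 4 weeks was above the highest of 8 weeks in both tissues, and DEP and control tissue did not overlap at 4 weeks but did at 8 weeks. In a whole tissue, fewer cells of a type and less RNA per cell cannot be told apart, for this gene and for all that follow.

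**Figure D2:**
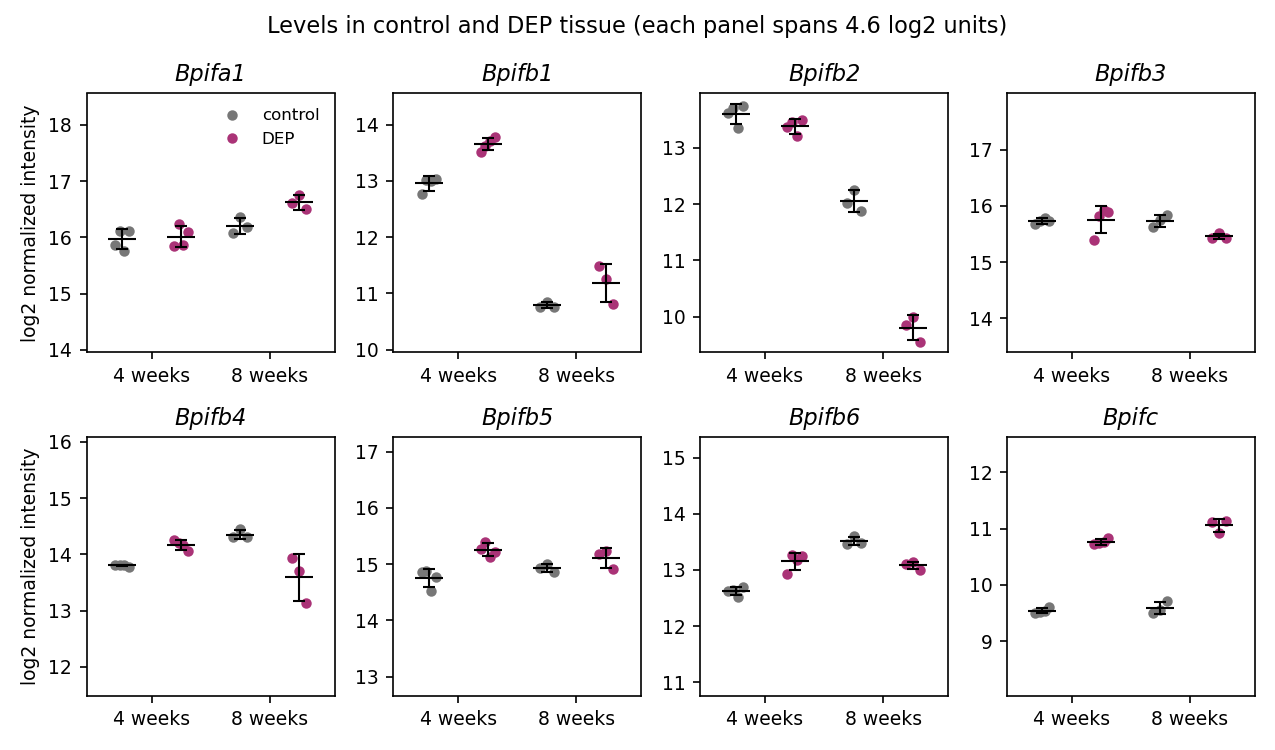
Log2 normalized intensity (y axis) of the 8 BPI-fold genes in control tissue (grey) and DEP tissue (purple) at 4 weeks (4 arrays) and 8 weeks (3 arrays), with black bars for the mean and SD. All panels cover the same number of log2 units, but each is centred on its own gene, so the axis limits differ. *Bpifb1* changes by -2.17 in control and -2.47 in DEP tissue from 4 to 8 weeks, and *Bpifb2* by -1.55 and -3.58.

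*Bpifb2*, which encodes LPLUNC2, is the first gene of the chromosome 2 cluster. Because *Bpifb2*, *Bpifb6* and *Bpifb4* lie in the same end of the cluster and all were lower at 8 weeks, and because *Bpifc* lies apart and rose at both times, the 250 bases before the RefSeq start of these 4 genes (build GRCm38.p6, each written 5′ to 3′ on the strand of the gene) are shown. The *Bpifb2* sequence is chr2:153874795-153875044 (+), that of *Bpifb6* chr2:153900138-153900387 (+), that of *Bpifb4* chr2:153940612-153940861 (+) and that of *Bpifc* chr10:86011861-86012110 (-). Capitals mark every match, on either strand, to TATAAA (the TATA box), to GCGTG (the core bound by the aryl hydrocarbon receptor), to TGACNNNGC (the antioxidant response core) or to TGANTCA (bound by AP-1 factors).
Bpifb2: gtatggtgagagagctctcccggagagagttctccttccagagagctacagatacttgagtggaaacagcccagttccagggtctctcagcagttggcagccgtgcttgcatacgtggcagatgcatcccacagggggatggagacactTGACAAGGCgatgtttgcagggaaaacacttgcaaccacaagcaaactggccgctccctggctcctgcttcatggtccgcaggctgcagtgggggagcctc
Bpifb6: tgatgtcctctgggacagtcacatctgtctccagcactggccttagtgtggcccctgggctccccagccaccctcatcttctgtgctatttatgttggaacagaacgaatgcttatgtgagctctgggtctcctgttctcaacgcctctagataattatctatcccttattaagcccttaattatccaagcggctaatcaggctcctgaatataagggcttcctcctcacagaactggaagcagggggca
Bpifb4: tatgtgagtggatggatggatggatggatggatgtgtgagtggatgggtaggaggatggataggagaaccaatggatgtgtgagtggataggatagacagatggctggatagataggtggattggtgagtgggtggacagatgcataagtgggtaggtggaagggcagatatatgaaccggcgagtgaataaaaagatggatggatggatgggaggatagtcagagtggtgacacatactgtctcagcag
Bpifc: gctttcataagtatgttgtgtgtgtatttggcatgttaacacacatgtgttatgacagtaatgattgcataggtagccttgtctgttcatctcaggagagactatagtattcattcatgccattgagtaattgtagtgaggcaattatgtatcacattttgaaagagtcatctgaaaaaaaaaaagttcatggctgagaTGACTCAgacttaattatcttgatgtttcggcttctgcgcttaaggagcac

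The *Bpifb2* window held 1 match to TGACNNNGC, which starts 101 bases before the gene, and the *Bpifc* window 1 match to TGANTCA, which starts 51 bases before it. The windows of *Bpifb6* and *Bpifb4* held none of the 4 motifs. Over 32851 such windows of the table, 12.4% held the TATA box, 28.2% GCGTG, 10.2% TGACNNNGC and 6.75% TGANTCA, and a TGACNNNGC match can overlap a TGANTCA match. Members that moved otherwise held the same motifs, TGACNNNGC in 1 of the 2 windows of *Bpifb1* and in both windows of *Bpifb3*, and TGANTCA in the window of *Bpifa1* and in 1 of *Bpifb3*. GCGTG was in no window of the 8 genes. A match of letters is a description of the sequence and says nothing of binding in this tissue.

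At 4 weeks the log2 ratios of *Bpifb2* were -0.25, -0.24, -0.15 and -0.24, a small and even decrease with a mean of -0.22 ± 0.05 (SD, n = 4, 1.16-fold, adjusted p = 0.0090 by limma). With the methods' t-test this did not pass (adjusted p = 0.23, with 0.0056 to 0.23 over the alternatives). At 8 weeks they were -2.16, -2.26 and -2.33, with a mean of -2.25 ± 0.08 (SD, n = 3, adjusted p = 4.7e-07 by limma), which was the 13th lowest log2 ratio of the 25236 probes. The exposure times did not overlap, and the difference of -2.03 (SE 0.07, adjusted p = 3.8e-06 by limma) was the 33rd most negative of all probes.

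Its level also fell from 4 to 8 weeks in the tissue of unexposed mice. In control tissue the log2 level was 13.62, 13.70, 13.35 and 13.74 at 4 weeks and 12.02, 12.26 and 11.89 at 8 weeks, 2.92-fold lower (adjusted p = 0.00019 by limma). In DEP tissue it was 13.37, 13.46, 13.20 and 13.50 at 4 weeks and 9.86, 9.998 and 9.56 at 8 weeks, a log2 difference of -3.58 (adjusted p = 4.1e-09 by limma). At 8 weeks every DEP level lay below every control level, while at 4 weeks the ranges overlapped.

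Markers of serous and salivary glands moved at 8 weeks too. Of 6 such genes 5 were tested, each well above background in every sample, and *Prol1* was too dim to be tested. At 8 weeks *Amy1* (amylase) was 29.8-fold lower in DEP tissue, and *Dcpp1* and *Smgc*, which encode salivary secreted proteins, were 3.99-fold and 2.39-fold lower. *Bhlha15*, a transcription factor of secretory cells, and *Pip* were 1.66-fold and 1.27-fold higher. The summed level of the 5 genes was 14.83 to 14.94 on the log2 scale in control tissue and 15.78 to 16.08 in DEP tissue at 4 weeks, and 14.45 to 14.52 and 13.66 to 13.82 at 8 weeks. At 4 weeks, however, *Pip* (4.24-fold) and *Bhlha15* (1.66-fold) were higher in DEP tissue, *Dcpp1* (1.43-fold) and *Smgc* (1.37-fold) were lower, *Amy1* did not pass (-0.07), and the median log2 ratio of the 5 genes was -0.07. In control tissue *Amy1* and *Bhlha15* rose from 4 to 8 weeks, by 5.58 and 0.50 on the log2 scale, and *Dcpp1*, *Smgc* and *Pip* were 1.99-fold, 2.30-fold and 2.004-fold lower at 8 weeks, beside 2.92-fold for *Bpifb2*. The part of gland tissue in the *Bpifb2* values was not tested.

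*Bpifb3* and *Bpifb4* encode the long PLUNC proteins first known as RYA3 and RY2G5 from olfactory mucosa. *Bpifb6* encodes LPLUNC6 and lies between *Bpifb2* and *Bpifb3*. The log2 ratios of *Bpifb4* at 4 weeks were 0.45, 0.40, 0.36 and 0.27, with a mean of 0.37 ± 0.08 (SD, n = 4, 1.29-fold, adjusted p = 0.034 by limma). At 8 weeks they were -0.37, -0.74 and -1.17, with a mean of -0.76 ± 0.40 (SD, n = 3, 1.70-fold lower, adjusted p = 0.0031 by limma). Every array of 4 weeks lay above zero and every array of 8 weeks below it, and the difference was -1.13 (SE 0.17, adjusted p = 0.0026 by limma). The 4-week call was narrow, as it was lost without any 1 of replicates 1, 2, 3 or 4 of 4 weeks (log2 ratio 0.34 to 0.40, adjusted p = 0.097, 0.093, 0.077 and 0.065), without replicate 2 of 8 weeks (adjusted p = 0.059), with an offset of 10 (0.34, adjusted p = 0.051), with median centring (0.31, adjusted p = 0.090) and without the filter on dim probes (adjusted p = 0.057, with 0.0036 to 0.097 over the alternatives). The 8-week call was lost with the methods' t-test (adjusted p = 0.11, with 0.0011 to 0.11 over the alternatives).

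*Bpifb6* had log2 ratios of 0.31, 0.61, 0.65 and 0.55 at 4 weeks, with a mean of 0.53 ± 0.16 (SD, n = 4, 1.44-fold, adjusted p = 0.00071 by limma). Its 8-week ratios were -0.36, -0.46 and -0.47, with a mean of -0.43 ± 0.06 (SD, n = 3, 1.35-fold lower, adjusted p = 0.0033 by limma). The direction differed between the times on all 7 arrays, with a difference of -0.96 (SE 0.10, adjusted p = 0.00045 by limma). Both calls held under all alternatives tried, with adjusted p of 0.00022 to 0.0099 at 4 weeks and 0.00094 to 0.030 at 8 weeks.

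The control levels of both genes rose from 4 to 8 weeks. *Bpifb4* went from 13.81, 13.81, 13.81 and 13.78 to 14.31, 14.44 and 14.30 in control tissue (log2 difference 0.55, adjusted p = 0.00038 by limma). *Bpifb6* went from 12.62, 12.65, 12.53 and 12.70 to 13.46, 13.60 and 13.47 there (log2 difference 0.89, adjusted p = 0.00011 by limma). In DEP tissue *Bpifb4* went from 14.26, 14.21, 14.17 and 14.05 to 13.94, 13.71 and 13.13, a fall of 0.58 on the log2 scale (adjusted p = 0.013 by limma) that was -0.35 without replicate 3 of 8 weeks (adjusted p = 0.026, with 0.0021 to 0.035 over the alternatives). *Bpifb6* was at 12.93, 13.26, 13.18 and 13.25 in DEP tissue at 4 weeks and at 13.10, 13.14 and 13.01 at 8 weeks, ranges that overlap (difference -0.07, 95% interval -0.29 to 0.15).

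*Bpifb3* lies between *Bpifb6* and *Bpifb4* and passed the test at neither time. Its log2 ratios were -0.27, 0.09, 0.14 and 0.16 at 4 weeks (mean 0.03 ± 0.20, SD, n = 4; adjusted p = 0.80 by limma), with replicate 1 below zero and the other arrays above it. At 8 weeks they were -0.19, -0.23 and -0.41, all below zero, with a mean of -0.27 ± 0.12 (SD, n = 3) and an adjusted p of 0.0502 by limma, just past the threshold. It passed under 8 of 17 alternatives, among them without replicate 1 of 4 weeks (adjusted p = 0.010), with log2 ratios of -0.48 to -0.21 and adjusted p of 0.0053 to 0.22 over all of them. The difference between the times, -0.30, did not pass (adjusted p = 0.099 by limma), but did without replicate 1 of 4 weeks (-0.40, adjusted p = 0.012) and with the processed signals (-0.38, adjusted p = 0.034, with 0.012 to 0.26 over the alternatives). Its control levels were 15.67 to 15.79 at 4 weeks and 15.62 to 15.83 at 8 weeks. In DEP tissue the change of -0.30 from 4 to 8 weeks did not pass (adjusted p = 0.076 by limma), but did without replicate 1 of 4 weeks (-0.42, adjusted p = 0.0023) and with the processed signals scaled to their 75th percentile (-0.40, adjusted p = 0.0068, with 0.0023 to 0.17 over the alternatives).

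Markers of olfactory mucosa also moved at both times. Over all tested probes, 20.7% were called higher and 16.3% lower at 4 weeks, and 18.7% and 17.3% at 8 weeks. Of 7 olfactory sensory neuron markers, none of them near background, 5 were higher and 0 lower at 4 weeks, and 0 were higher and 6 lower at 8 weeks. *Adcy3* and *Ano2* did not pass at 4 weeks, nor *Ano2* at 8 weeks. *Omp*, the marker of mature olfactory neurons, had a log2 ratio of 0.89 at 4 weeks and -0.43 at 8 weeks. Their summed log2 level was 16.28 to 16.52 in control and 17.15 to 17.29 in DEP tissue at 4 weeks, and 17.00 to 17.18 and 16.52 to 16.59 at 8 weeks. Of 6 markers of sustentacular cells and Bowman's glands, likewise bright throughout, 5 were higher and 1 lower at 4 weeks, and 2 higher and 3 lower at 8 weeks. Their summed log2 level was 15.89 to 16.15 in control and 16.37 to 16.76 in DEP tissue at 4 weeks, and 16.95 to 17.17 and 16.42 to 16.58 at 8 weeks. *Cyp2g1*, the olfactory cytochrome P450, was at 0.16 and -0.50, *Ermn* rose at both times, by 0.32 and 1.70, and *Sox9*, a transcription factor of glands and ducts, turned the other way, with log2 ratios of -0.16 and 0.20 (adjusted p = 0.027 and 0.019 by limma). The part of olfactory mucosa in the *Bpifb4* and *Bpifb6* values was not tested.

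**Figure D3:**
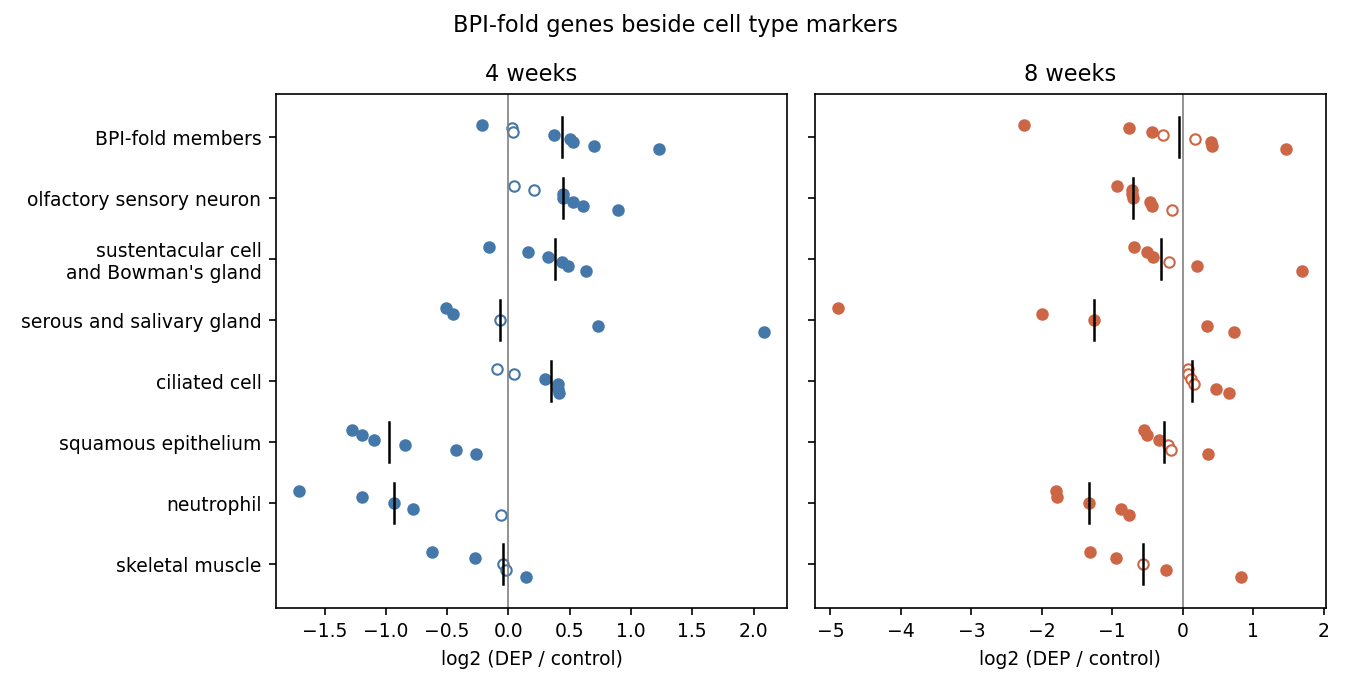
Log2 ratio of DEP over control (x axis) at 4 weeks (left) and 8 weeks (right) for the 8 BPI-fold genes and for markers of 7 cell types and tissues (rows). Each point is a gene, filled where the adjusted p was at most 0.05, and the black line is the median of the row. The median of the olfactory neuron markers is 0.44 at 4 weeks and -0.71 at 8 weeks.

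*Bpifb5*, the long PLUNC gene next to *Bpifb1*, rose at 4 weeks. Its log2 ratios were 0.42, 0.53, 0.60 and 0.46, with a mean of 0.50 ± 0.08 (SD, n = 4, 1.41-fold, adjusted p = 0.00040 by limma), and this call held under all alternatives tried. At 8 weeks they were 0.26, 0.23 and 0.05, all above zero and all below the 4-week arrays, with a mean of 0.18 ± 0.11 (SD, n = 3, adjusted p = 0.056 by limma). This passed without replicate 1 of 4 weeks (adjusted p = 0.049), without replicate 3 of 8 weeks (0.24, adjusted p = 0.038) and over probes above background everywhere (adjusted p = 0.042, with 0.038 to 0.30 over the alternatives). The difference of -0.32 passed (adjusted p = 0.022 by limma), but not without replicate 2 or 3 of 4 weeks (-0.31 and -0.29, adjusted p = 0.058 and 0.056) or replicate 2 or 3 of 8 weeks (-0.35 and -0.26, adjusted p = 0.059 and 0.065; 0.014 to 0.065 over the alternatives). Its log2 levels were 14.53 to 14.87 in control and 15.12 to 15.40 in DEP tissue at 4 weeks, which do not overlap, and 14.86 to 15.00 and 14.91 to 15.23 at 8 weeks, which do.

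*Bpifc* encodes a BPI-like protein and is the 1 member gene outside the cluster. Its log2 ratios at 4 weeks were 1.22, 1.22, 1.23 and 1.23, with a mean of 1.22 ± 0.0045 (SD, n = 4, 2.34-fold, adjusted p = 5.7e-06 by limma), the 65th highest of all probes. At 8 weeks they were 1.61, 1.37 and 1.43, with a mean of 1.47 ± 0.13 (SD, n = 3, 2.77-fold, adjusted p = 2.9e-06 by limma), the 146th highest. Both calls, and both thresholds of the study, held under all alternatives tried, where the log2 ratios were 1.11 to 1.32 at 4 weeks and 1.14 to 1.58 at 8 weeks. The 4-week arrays agree far more closely for this gene than for the other members, whose SDs at 4 weeks were 0.05 to 0.20.

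In control tissue *Bpifc* was at log2 levels of 9.50, 9.52, 9.54 and 9.61 at 4 weeks and 9.50, 9.56 and 9.71 at 8 weeks, ranges that overlap (difference 0.05, 95% interval -0.10 to 0.20, adjusted p = 0.61 by limma). In DEP tissue it was at 10.72, 10.74, 10.77 and 10.84 at 4 weeks and 11.11, 10.93 and 11.14 at 8 weeks. Every DEP level lay above every control level at both times. The change of the DEP effect between the times was 0.25 (adjusted p = 0.046 by limma), which was not significant under 12 of 15 alternatives, among them leaving out any 1 array (0.18 to 0.30) and median centring (0.03, adjusted p = 0.87, with 0.032 to 0.87 over the alternatives). The rise in DEP tissue of 0.29 (adjusted p = 0.021 by limma) was lost without replicate 2 of 4 weeks (0.28, adjusted p = 0.061), without replicate 1 or 3 of 8 weeks (0.27 and 0.25, adjusted p = 0.067 and 0.068) and with the processed signals scaled to their 75th percentile (0.25, adjusted p = 0.095, with 0.017 to 0.095 over the alternatives).

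Between the times, 4 of the 8 genes changed in control tissue, *Bpifb4* and *Bpifb6* upward and *Bpifb1* and *Bpifb2* downward, beside 31.6% of all probes, 20.2% upward and 11.4% downward. In DEP tissue 5 changed, *Bpifa1* and *Bpifc* upward and *Bpifb1*, *Bpifb2* and *Bpifb4* downward, beside 40.1% of all probes, 21.9% upward and 18.2% downward. The control and DEP comparisons share their arrays but not their RNA. In each of them, *Bpifb1* and *Bpifb2* were the BPI-fold genes past 2-fold, both downward. The thresholds of the study were met by 2.37% of probes in control tissue, 1.51% upward and 0.86% downward, and by 4.62% in DEP tissue, 3.44% upward and 1.18% downward. With the processed signals scaled to their 75th percentile, 2288 probes met them upward and 367 downward in control tissue, against 381 and 217, and 2814 and 1102 in DEP tissue, against 869 and 298, while *Bpifb1* and *Bpifb2* were again the BPI-fold genes that met them.

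Along chromosome 2 the cluster begins with *Bpifb2*, *Bpifb6*, *Bpifb3* and *Bpifb4*, continues with the relatives *Bpifa6*, *Bpifa2* and *Bpifa3*, and ends with *Bpifa1*, *Bpifa5*, *Bpifb1*, *Bpifb5*, *Bpifb9a* and *Bpifb9b*. At 8 weeks *Bpifb2*, *Bpifb6*, *Bpifb4*, *Bpifa6* and *Bpifa2* in the first stretch fell and none there rose. From *Bpifa1* on, *Bpifa1*, *Bpifa5*, *Bpifb1* and *Bpifb9b* rose and none fell. *Bpifb3* and *Bpifb5* did not pass, and *Bpifb9a* had no probe. *Bpifa3* did not pass either, but its probe was near background, with mean log2 levels of 6.26 to 6.64. The probe of *Bpifa5* was dim as well, though above background on every array. At 4 weeks the order showed no such division, with *Bpifb6* and *Bpifb4* up and *Bpifb2* and *Bpifa2* down in the first stretch, and in the second *Bpifb1*, *Bpifb5* and *Bpifb9b* up and *Bpifa5* down. The 8-week division rests in part on calls that were not stable. With the processed signals neither *Bpifa1* nor *Bpifb1* passed at 8 weeks (adjusted p = 0.060 and 0.11 by limma). *Bpifb1* lost its 8-week call under 6 of 17 alternatives, and none were run for the relatives. Over all tested probes 18.7% were called higher and 17.3% lower at 8 weeks. The arrangement by gene order was noticed in the values and was not tested.

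**Figure D4:**
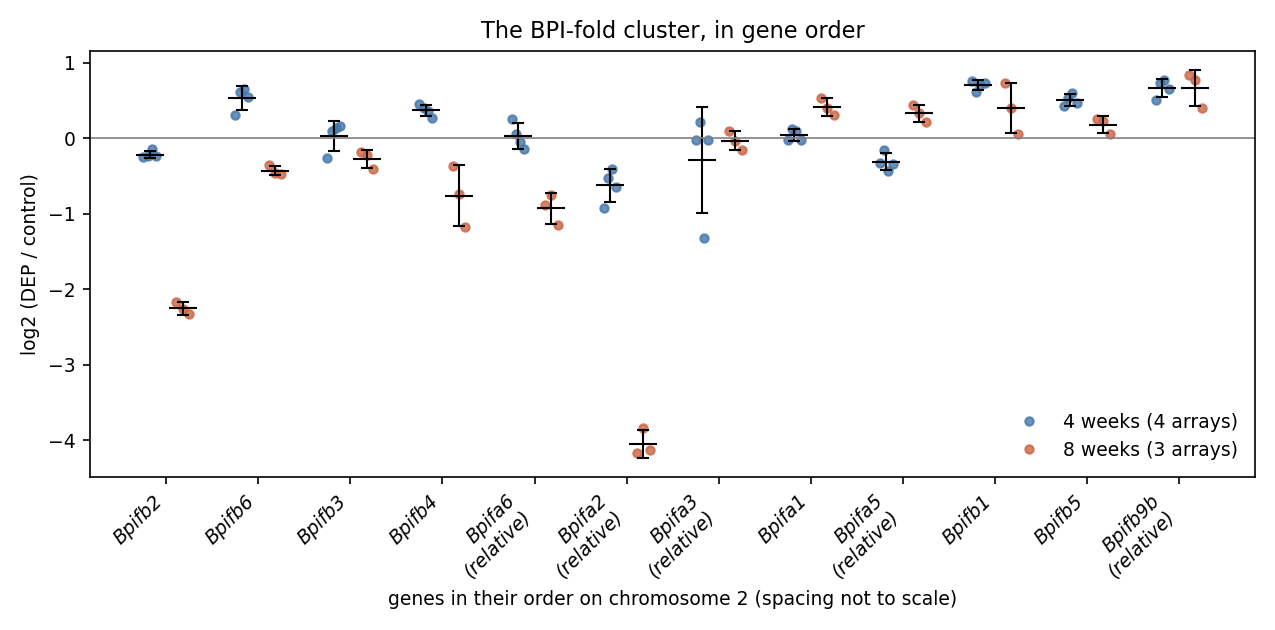
Log2 ratio of DEP over control (y axis) of the tested BPI-fold genes of chromosome 2 in their order on the chromosome (x axis, spacing not to scale), with relatives outside the 8 genes named as such. Blue points are the 4 arrays of 4 weeks, orange points the 3 arrays of 8 weeks, and black bars the mean and SD. At 8 weeks the means run from -4.05 for *Bpifa2* in the first stretch to 0.66 for *Bpifb9b* at the end. The probe of *Bpifa3* was near background.

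Of 9 relatives outside the 8 genes, 8 had a probe and 7 were tested, among them *Bpifa3*, whose probe was near background. At 4 weeks 1 rose, 2 fell and 4 did not pass, and at 8 weeks 2 rose, 2 fell and 3 did not pass. Of all tested probes 37% passed at 4 weeks and 36% at 8 weeks. *Bpifa2*, the parotid secretory protein of saliva, had log2 ratios of -0.93, -0.53, -0.40 and -0.64 at 4 weeks (mean -0.63, adjusted p = 0.0017 by limma) and of -4.17, -3.84 and -4.13 at 8 weeks (mean -4.05, adjusted p = 7.1e-07 by limma). Its control level rose from 11.94, 11.92, 11.74 and 12.0002 at 4 weeks to 14.71, 14.94 and 14.65 at 8 weeks, by 2.86 on the log2 scale, in the opposite direction to *Bpifb2*. In DEP tissue *Bpifa2* fell from between 11.01 and 11.39 to between 10.52 and 11.10, ranges that overlap (adjusted p = 0.012 by limma).

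*Bpifa6* was at 0.03 at 4 weeks and fell by 0.93 on the log2 scale at 8 weeks (adjusted p = 0.00030 by limma). *Bpifb9b*, a relative of the vomeromodulin of nasal glands, rose by 0.66 at both times (adjusted p = 0.00073 and 0.0013 by limma). *Bpifa5* was lower at 4 weeks (-0.31, adjusted p = 0.0057 by limma) and higher at 8 weeks (0.33, adjusted p = 0.0085 by limma). Its probe was dim, with mean log2 levels of 6.98 to 8.00, and the alternatives were not run for the relatives. *Lbp*, which carries bacterial lipopolysaccharide in serum, was at 0.24 and 0.08, *Pltp*, the phospholipid transfer protein, at 0.03 and -0.11, and neither passed. *Bpi* (2 probes) was too dim to be tested, and close paralogs such as *Bpifb9a* and *Bpifb9b* may share a probe.

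Secreted defence proteins of other families also changed in both directions. Of 17 such genes 16 were tested, and 6 rose and 5 fell at 4 weeks, while 5 rose and 3 fell at 8 weeks. Of all tested probes 37% passed at 4 weeks and 36% at 8 weeks, and of the 14856 bright probes tested alone 50.1% and 48.1%. A gene that fell at 4 weeks (log2 ratio -0.18, adjusted p = 0.043 by limma) was not well above background on every array in control tissue of that time. *Lpo*, the lactoperoxidase of airway glands, rose by 2.98 on the log2 scale at 4 weeks and by 0.28 at 8 weeks. *Muc5ac*, the goblet cell mucin, was 2.30-fold higher at 4 weeks (adjusted p = 0.00015 by limma) and had a log2 ratio of 0.06 at 8 weeks (adjusted p = 0.74). *Muc5b*, the gland mucin, had log2 ratios of 0.25 (adjusted p = 0.061) and -1.54 (adjusted p = 2.8e-05). *Pigr*, the receptor that carries immunoglobulin A across the epithelium, rose by 0.35 and 1.64. *Slpi*, a protease inhibitor of secretions, fell by 1.23 and 0.76, and *Tff2*, a trefoil peptide, fell by 0.40 and 1.64. The median log2 ratio of the 16 genes was 0.12 at 4 weeks and 0.04 at 8 weeks. Their summed log2 level was 17.64 to 17.67 in control and 17.80 to 18.03 in DEP tissue at 4 weeks, and 17.32 to 17.34 and 17.19 to 17.39 at 8 weeks.

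Markers of the other tissues in a nasal sample moved as well, beside the 20.7% of all probes called higher and 16.3% lower at 4 weeks. At 8 weeks these shares were 18.7% and 17.3%. Of 6 ciliated cell markers tested (*Dnah9* was too dim), 4 rose and 0 fell at 4 weeks and 2 rose and 0 fell at 8 weeks, and their summed log2 level was 11.67 to 11.74 in control and 11.93 to 12.03 in DEP tissue at 4 weeks, and 12.16 to 12.17 and 12.36 to 12.45 at 8 weeks. *Ccdc39*, 1 of those that rose at 4 weeks, was not well above background on every array in control tissue of that time. All 6 squamous epithelium markers fell at 4 weeks (sums of 13.07 to 13.38 in control and 12.34 to 12.67 in DEP tissue), and 1 rose and 3 fell at 8 weeks (12.32 to 12.52 and 12.06 to 12.29). Of 5 neutrophil markers 4 fell at 4 weeks (13.70 to 13.90 and 12.32 to 12.60) and 5 at 8 weeks (13.46 to 13.56 and 11.78 to 11.83). Of 5 skeletal muscle markers 1 rose and 2 fell at 4 weeks (15.88 to 16.03 and 15.75 to 16.05), and 1 rose and 3 fell at 8 weeks (15.48 to 15.66 and 15.22 to 15.30). Their part in the BPI-fold values was not tested.

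For each of the 7 genes called at 4 or 8 weeks, the other genes with the most similar log2 ratios over the 7 arrays were found among 15749 gene symbols by the root-mean-square difference. Nearest to *Bpifc* were *Atxn7* (0.07 log2 units), *2310002F09Rik* (0.08) and *Ung* (0.09). *Bpifb6* was followed most closely by *Impdh1* (0.06), *Diras1* (0.08) and *Ttll7* (0.09), and *Bpifb4* by *Brsk1* (0.14), *Ppox* (0.14) and *Mapk8ip1* (0.15). For *Bpifb2*, which had few genes as low at 8 weeks, the nearest were *Gm4736* (0.19), *Aqp8* (0.23) and *Aadacl4fm1* (0.23). *Serp1*, *Tert* and *Wdyhv1* were nearest to *Bpifa1* (0.06 to 0.07), *AW551984*, *P3h1* and *Trim3* to *Bpifb1* (0.09 to 0.12), and *Rassf7*, *Lrrc36* and *Cdon* to *Bpifb5* (0.06 to 0.08).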

How the data were processed

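RNA of nasal tissue was measured on 7 Agilent two-colour arrays, 4 after 4 weeks and 3 after 8 weeks, each with DEP RNA in Cy5 and control RNA in Cy3. The authors deposited the Feature Extraction 10.10.1.1 output of each array, with the median intensity of every spot and its local background, background-subtracted and dye-normalized processed intensities, and the log10 ratio of the latter. The GeneSpring normalization of the study is not part of these values, and the deposited log10 ratio was not used.

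In limma 3.58.1 (R 4.3.3), median intensities were background-corrected by normexp (offset 50). The background was fitted without spots that the scanner software marks as background outliers and applied to all spots, because on replicate 2 of 4 weeks 9 of 44397 spots with a background over 50 above their signal distorted a fit on all spots. Loess was applied to the log2 ratios of each array, non-uniform spots were dropped, and averaging the spots of each probe gave 39429 probes. A probe was tested if 3 or more of the 7 arrays showed it well above background in the DEP or the control channel, which 25236 did. The DEP channel of an array had 18661 to 25098 probes well above background and the control channel 17105 to 26964. Levels are log2 intensities of a channel after loess and quantile normalization of the average intensities between arrays. Levels of different probes are not comparable. RefSeq accessions of GRCm38.p6 named 28330 probes.

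One limma model over the 7 arrays gave the mean log2 ratio of each time and their difference, and one per channel compared 8 with 4 weeks. The threshold for a call was an adjusted p of 0.05 in limma (Benjamini-Hochberg over the 25236 probes). SD is over arrays, and intervals are 95%. On simulated arrays with 25236 probes tested, the fit called 100% of probes changed by 1 on the log2 scale at 4 weeks that were well above background on all arrays, and 67.2% of those changed by 0.5 (52.5% at 8 weeks). It gave medians of 0.887 and 0.446 for these at 4 weeks. The simulation changed the ratio of far fewer probes than were called in the data. It left the ratios of the most variable probes unchanged and drew noise independently for each probe. How far these shares and medians hold for the 8 genes was not tested. The genes named are the 8 BPI-fold genes, the 3 nearest genes of each one called, and up to 6 genes of each of 2 lists (BPI/LBP relatives and secreted defence proteins) with the largest changes. Markers of 7 cell types and tissues were summed as levels on the linear scale, so the brightest probes weigh most in a sum. The BPI-fold genes and all lists were chosen with earlier results of these data known. Alternatives changed the background correction, the scaling, the filter, the test and the arrays included. The methods' t-test was unpaired, on the channel values of a time. The number of arrays limits the precision.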

Additional observations from a re-analysis of the deposited data

Results flagged for a closer look

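On the 4-week arrays, 2 of the 8 BPI-fold genes had 1 array far from the rest, past the 95% critical value of Dixon's test, which chance gives in about 1 group of 20. *Bpifb2* had a log2 ratio of -0.148 on replicate 3, against -0.25 to -0.24 on the others, and *Bpifb3* had -0.269 on replicate 1, against 0.09 to 0.16. The 3 arrays of 8 weeks are too few for this check.

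The DEP effect differed between 8 and 4 weeks in limma's test of the difference for 6 genes, beside 29.9% of all probes. Among the 14856 probes with signals clear of background throughout, as those of the 8 genes were, this share was 43.9%. The difference on the log2 scale was 0.37 for *Bpifa1*, -2.03 for *Bpifb2*, -1.13 for *Bpifb4*, -0.32 for *Bpifb5*, -0.96 for *Bpifb6* and 0.25 for *Bpifc*. The 2 times also differ in slide, so time and slide cannot be told apart.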

How the results depend on the processing

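Of 584 values of a BPI-fold gene under an alternative, 515 kept their direction and their side of the threshold, 39 kept the direction and lost the call, 19 gained it and 11 changed sign. All sign changes were of uncalled values near zero. For DEP over control at 4 weeks they were *Bpifa1* with an offset of 10 (-0.00080) and with the processed signals (-0.0809), and *Bpifb3* with an offset of 10 (-0.0123), with the processed signals (-0.0992) and without replicate 3 or 4 of 4 weeks (-0.0151 to 0.1273 over the arrays left out). In control tissue between the times they were *Bpifb3* without replicate 1 of 4 weeks or replicate 2 or 3 of 8 weeks (-0.046 to 0.0607) and with quantile normalization of the channel (-0.0238), and *Bpifc* without replicate 3 of 8 weeks (-0.0117 to 0.0912).

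The count of genes called at 8 weeks was 3 of 8 with the methods' t-test, against 6. Leaving out 1 array gave 5 to 6 genes at 4 weeks, 5 to 8 at 8 weeks, 4 to 6 for the difference between the times, 4 in control tissue and 4 to 6 in DEP tissue. In the same order, the shares called over all probes were then 26.5% to 37.2%, 20.3% to 40%, 17.9% to 32.2%, 23.1% to 33% and 30.5% to 45.1%. By the methods' t-test at the thresholds of the study 1 gene was higher at 4 weeks, and 1 was higher and 1 lower at 8 weeks. Over all probes, the share called at 4 weeks fell from 37% to 20.3% with that test and to 23% with the background fitted on all spots. At 8 weeks it fell from 36% to 22.3% with that test and to 20.3% without replicate 2 of 8 weeks, which lowered the share for the difference from 29.9% to 17.9%.

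Deviations of same-numbered arrays of the 2 times correlated at -0.0065, -0.0076 and 0.016, which gives no sign that replicate numbers pair the arrays. These correlations cannot exclude a pairing that touches few probes. With the replicate block the counts of called genes were 6 at 4 weeks, 7 at 8 weeks, 6 for the difference, 4 in control and 5 in DEP tissue, and *Bpifb3* at 8 weeks (-0.27, adjusted p = 0.049; 0.0053 to 0.22 over the alternatives) was the 1 call it changed. The shares called over all probes with the block were 37.1%, 36%, 29.7%, 34.7% and 41.4% in the same order. With few arrays, no dye swap and 1 slide per time, small differences cannot be separated from slide and dye effects.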

Other observations

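Among the 3 arrays of 8 weeks, replicate 1 had the highest log2 ratio of all 8 BPI-fold genes and replicate 3 the lowest of 7 of them, *Bpifc* being the exception. Over all tested probes with a value on these arrays, replicate 1 was highest for 39.9% and replicate 3 lowest for 38.9%, and among the 3925 probes at least as bright as the dimmest of the 8 genes these shares were 42.6% and 47.8%. The log2 ratios of the tested probes correlated between 8-week arrays at 0.71 to 0.88, between 4-week arrays at 0.44 to 0.49, and between arrays of the 2 times at 0.09 to 0.29, over probes, which are not independent.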
